A study of Mus musculus with 8 samples.

Results

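The genes described here are the inhibitors of DNA binding Id1, Id2 and Id3, the E protein genes Tcf3 and Tcf12, and the cyclin-dependent kinase (CDK) inhibitor genes Cdkn1a, Cdkn1b, Cdkn2c and Cdkn2d, in mouse CD4 T cells cultured with or without TGF-b. They are 9 of the 18193 gene symbols that the array annotation names, and every probe set annotated to 1 of them was taken, 19 in all. A probe set is a group of short array probes read together as 1 transcript measurement. Id2 has 3 probe sets, Tcf3 has 3, Tcf12 has 5, Cdkn1a and Cdkn1b have 2 each, and the other 4 genes have 1 each. Different probe sets of a gene can read different transcript ends or isoforms, so each is given on its own and signals are compared between arrays, never between probe sets.

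The cells were naive CD4 T cells sorted by FACS as CD4+CD25-CD44loCD62Lhi from spleens of mice labelled C57BL/6J. All cultures, the controls included, were activated with plate-bound anti-CD3e, soluble anti-CD28 and recombinant IL-2 in the presence of antibodies to IFN-g and IL-4, and were kept for 24 h with TGF-b at 2 ng/ml or without it. The 4 genotypes were wild type (WT), Smad2del/del (Smad2KO), Smad3-/- (Smad3KO) and Smad2del/del with Smad3+/- (Smad2KO_Smad3het), and the products of Smad2 and Smad3 are phosphorylated by the TGF-b receptor to act as transcription factors. Each genotype was read on 1 array without and 1 array with TGF-b, 8 arrays in all. The Smad2 deletion was conditional and limited to T cells, by a driver that the sources used here do not name, whereas the Smad3 knockout is not described as conditional. The labels do not say that cultures came from separate animals. With 1 array per genotype and treatment, no p-value below measures the spread between like cultures. Precision is limited by this small number of arrays.

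Id proteins have a helix-loop-helix domain for pairing but no basic region, so that an E protein bound to an Id protein cannot hold its DNA site, the E-box. In mature T cells Id2 and Id3 are known to keep the E proteins in check, with roles in effector, memory and regulatory T cells, and Id genes are classical targets of Smad signalling, of the BMP branch above all. CDK inhibitors hold back the cell cycle: Cdkn1a and Cdkn1b encode the Cip/Kip inhibitors p21 and p27, which bind cyclin-CDK complexes, and Cdkn2c and Cdkn2d encode the INK4 inhibitors p18 and p19, which bind the kinases that partner with D cyclins. TGF-b is known to restrain T cell proliferation, and induction of CDK inhibitors is one of its described routes.

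The 250 bases before the transcription start are shown for the genes on which the results turn, with the capitals marking letters of known Smad motifs. They are RefSeq sequences of GRCm38.p6, 5′ to 3′ on the gene's own strand, at chr12:25096093-25096342 on the minus strand for Id2, chr4:136143572-136143821 on the plus strand for Id3, chr17:29090729-29090978 on the plus strand for the first start of Cdkn1a and chr6:134920151-134920400 on the plus strand for Cdkn1b. The table gave 8 of the 9 genes, all but Id1.
Id2: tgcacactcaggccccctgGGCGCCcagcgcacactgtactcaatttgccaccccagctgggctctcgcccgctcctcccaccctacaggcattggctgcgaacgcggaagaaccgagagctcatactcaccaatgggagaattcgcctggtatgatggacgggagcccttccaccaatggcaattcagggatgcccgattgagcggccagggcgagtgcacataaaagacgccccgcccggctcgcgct
Id3: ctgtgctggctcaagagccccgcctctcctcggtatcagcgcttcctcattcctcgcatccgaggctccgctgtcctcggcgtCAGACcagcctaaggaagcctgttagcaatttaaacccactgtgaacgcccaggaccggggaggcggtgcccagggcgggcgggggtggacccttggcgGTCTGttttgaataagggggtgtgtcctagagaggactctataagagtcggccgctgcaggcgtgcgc
Cdkn1a: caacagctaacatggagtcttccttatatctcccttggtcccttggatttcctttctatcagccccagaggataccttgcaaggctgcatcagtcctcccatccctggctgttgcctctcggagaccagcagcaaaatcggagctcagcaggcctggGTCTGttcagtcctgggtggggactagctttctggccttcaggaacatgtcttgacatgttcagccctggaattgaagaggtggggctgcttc
Cdkn1b: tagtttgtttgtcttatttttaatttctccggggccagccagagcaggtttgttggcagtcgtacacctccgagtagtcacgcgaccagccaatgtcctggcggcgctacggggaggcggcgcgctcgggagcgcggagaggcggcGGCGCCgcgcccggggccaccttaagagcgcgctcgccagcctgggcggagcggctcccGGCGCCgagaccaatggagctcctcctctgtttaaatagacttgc

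The Id2 window holds the GC-rich Smad element GGCGCC once, 231 bases before the start, and the Cdkn1b window holds it at 104 and 45 bases before the start. The Smad box, CAGAC or GTCTG on the other strand, lies 167 and 68 bases before the Id3 start and 93 bases before the first Cdkn1a start. Of 32851 windows of the same length, 9.59% hold GGCGCC and 42.2% hold a Smad box, so a match is common and describes the letters alone. The E-box that E proteins prefer, CAGGTG or CACCTG, is in 17.2% of all windows and in none of these 4, while the window of the second Cdkn1a start holds it 187 bases before that start. The FOXO site, GTAAACA or TGTTTAC, is in 3.17% of all windows and in none of those listed for the 8 genes.

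All signals below are scaled so that each array has the same trimmed mean, and a floor of 27.7 marks the median signal of the 6 WT, Smad2KO and Smad3KO arrays. On those 6 arrays 20147 probe sets reached 2 times the floor and were tested, among them 17 of the 19 member probe sets. The 2 Smad2KO_Smad3het arrays stood apart: rank correlations with the other 6 were 0.659 to 0.693, against 0.907 to 0.928 among those 6, and the robust SD of their log2 ratios was 0.596, against 0.245 to 0.370 in the other genotypes. Their median scaled signals were 88.0 and 90.9, against 26.2 to 30.4 on the other 6, so dim probe sets read higher on them. Summed signals there were 1391 and 1758 for 5 myeloid genes against 68.9 to 136.4, 1049 and 1347 for 2 CD8 T cell genes against 58.1 to 136.9, and 9396 and 10145 for 5 CD4 T cell markers against 15002 or more. Single genes did not all follow these sums. Cd8b1 read 134.5 and 11.3 there, against 32.7 to 79.1 on the other 6 arrays. Cd3e read 2462 and 2539 there, against 1597 to 2315, and Cd4 read 894.6 and 1918, against 1151 to 1397. Itgam, a myeloid gene, stayed under the floor. Cd3d, Cd3g and Cd28 were lower there, and Cd8a and the other myeloid genes higher. The part of these differences in the results was not tested, and Smad2KO_Smad3het is given as values outside the tests. The 5 CD4 T cell markers (Cd4, Cd3e, Cd3d, Cd3g, Cd28) were all bright on the other 6 arrays, with sums of 15002 to 15568 without and 15238 to 15325 with TGF-b. On the same 6 arrays all 4 B cell genes, both NK genes, 4 of 5 myeloid genes and the erythroid gene that the annotation names were under the floor. The brightest of 2 Smad2 probe sets went from 909.8 without TGF-b to 878.1 with it on the WT arrays and from 983.2 to 890.5 on those labelled Smad2KO, and the brightest of 3 Smad3 probe sets from 127.2 to 467.1 on the WT arrays and from 522.7 to 621.8 on those labelled Smad3KO. On those probe sets neither targeted gene was lower than WT in its single knockout, while the Smad2 probe set went from 648.1 to 595.9 on the Smad2KO_Smad3het arrays and another of the Smad3 probe sets from 21.3 to 88.0 in WT and from 36.8 to 41.5 in Smad3KO. The sources used here do not place these probes relative to the deleted parts, so they check nothing, and Smad2KO and Smad3KO stand below for arrays labelled so.

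With TGF-b, Id1 and Id2 rose in all 3 genotypes tested, as did the Cdkn1b probe set that was tested. Id3 had lower signals with TGF-b in each genotype, most of all in WT, but its mean response did not pass the test. Tcf3, Tcf12, Cdkn1a, Cdkn2c and Cdkn2d had no probe set whose mean response passed. The mean response is the log2 ratio with over without TGF-b averaged over WT, Smad2KO and Smad3KO, tested with limma with genotype as a block, at an adjusted p under 0.05. Its spread is how the ratio varies between genotypes, so a genotype effect on a response counts as spread. Whether treated and untreated arrays overlap is given below only to describe the arrays. The share of all probe sets without such overlap is not given here, so a lack of overlap adds no support to the test. By this test 4 of the 17 member probe sets were called higher and 0 lower, 7 had an unadjusted p under 0.05, and 11 of the 17 values were above 0, with a median of 0.14 on the log2 scale against 0.00032 over all probe sets tested. Of all probe sets tested, 5.93% were called higher and 3.49% lower, 1194 and 704 in number. An unadjusted limma p under 0.05 was found for 4897 of these 20147. With arrays centred on the median log2 signal instead, the split over all probe sets was 1048 and 991. In cells measured in bulk, fewer cells of a type and less RNA per cell cannot be told apart.

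**Figure D1:**
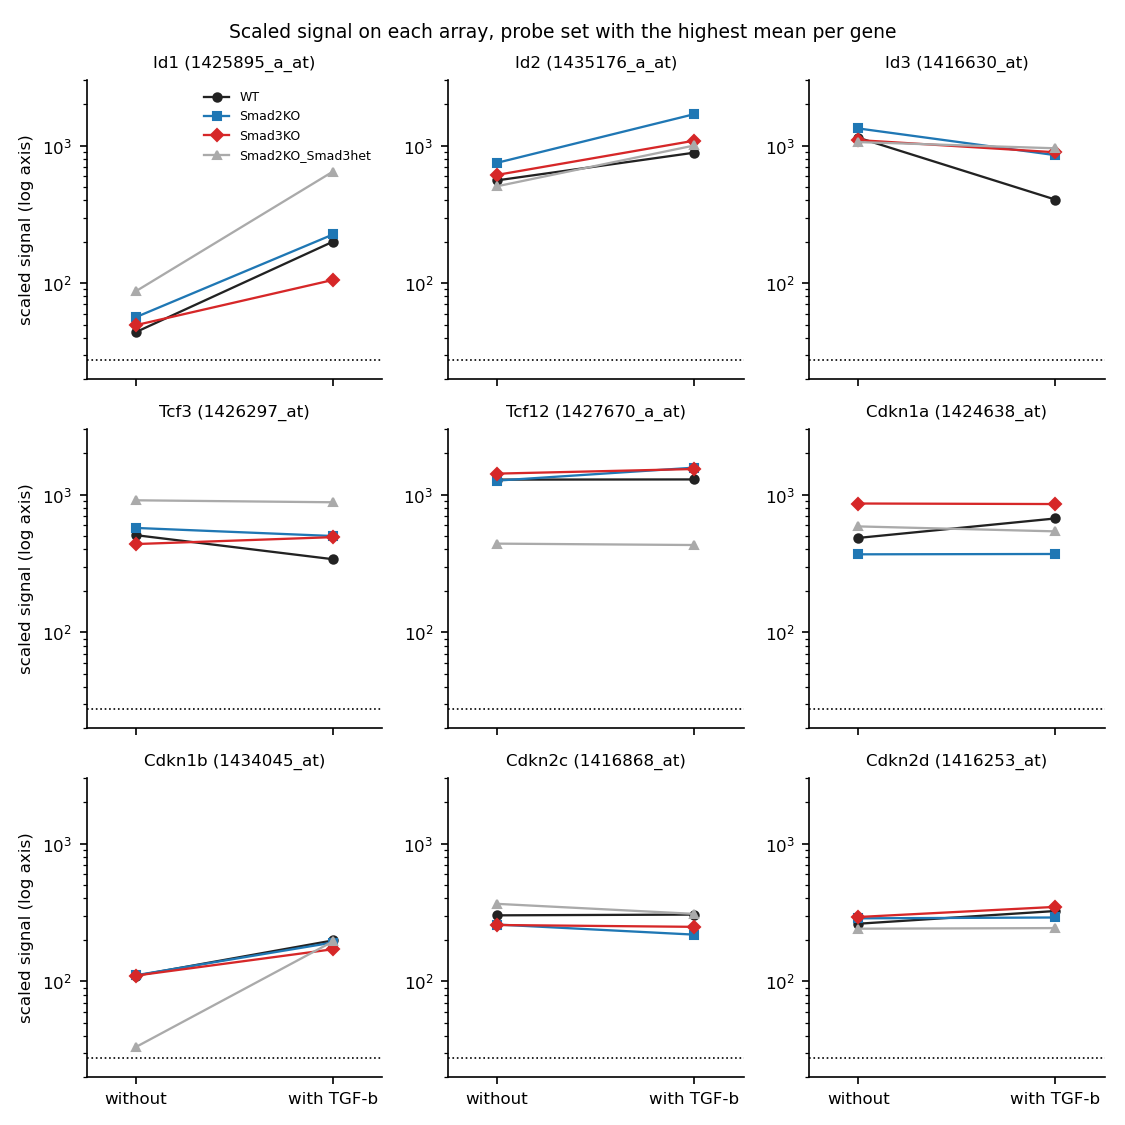
Scaled array signal (log axis) of each gene's probe set with the highest mean, without and with TGF-b, 1 panel per gene. Each point is 1 array, lines join the 2 arrays of a genotype, and the dotted line is the floor of 27.7. Id1, Id2 and Cdkn1b lines slope up in every genotype, Id3 lines slope down, and the Cdkn1a line of Smad3KO lies above the others and that of Smad2KO below them.

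Id1 had the largest mean response of the 9 genes. On adding TGF-b its signal went from 44.1 to 200.4 in WT, from 56.6 to 226.0 in Smad2KO and from 49.5 to 105.5 in Smad3KO. Every array with TGF-b was thus above every array without it among these 6, and Smad3KO with TGF-b was the lowest of the treated ones. Signals were 4.55-fold higher with TGF-b in WT (log2 ratio 2.18), 3.99-fold in Smad2KO (2.00) and 2.13-fold in Smad3KO (1.09). Averaged over these genotypes the log2 response was 1.76 (SE 0.228, 3.38-fold, limma adjusted p = 0.000824). Smad2KO_Smad3het went from 87.4 to 648.2, a log2 ratio of 2.89 that starts from a signal no higher than that array's median of 88.0.

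The Id1 response in Smad3KO minus the mean of the WT and Smad2KO responses was -0.999 on the log2 scale (SE 0.412, 95% interval -1.87 to -0.13). Over all probe sets tested it did not pass (limma adjusted p = 0.731), so the smaller response is a value of these arrays that the test did not separate from their spread. Without TGF-b the 3 genotypes lay within 44.1 to 56.6, and Smad3KO (49.5) was not below WT (44.1). Over both treatments together, with treatment as a block, neither knockout's level differed from WT by an amount that passed. Smad2KO was at 0.27 (SE 0.279, limma adjusted p = 0.835) and Smad3KO at -0.38 (SE 0.279, limma adjusted p = 0.700) on the log2 scale. The negative Smad3KO value comes from the treated arrays, at 105.5 against 200.4 in WT.

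Id2 rose on 2 of its 3 probe sets. With TGF-b the probe set 1435176_a_at went from 558.9 to 888.5 in WT, from 750.2 to 1693 in Smad2KO, from 612.6 to 1086 in Smad3KO and from 506.5 to 1002 in Smad2KO_Smad3het. Treated arrays were all above untreated ones, and Smad2KO was the highest of each treatment. The log2 ratios were 0.67, 1.17, 0.83 and 0.98 in that order of genotypes, and the mean response over the first 3 was 0.89 (SE 0.103, 1.85-fold, limma adjusted p = 0.000393).

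The probe set 1422537_a_at gave a larger Id2 response, from 127.0 to 320.7 in WT, 194.4 to 691.3 in Smad2KO, 217.3 to 438.5 in Smad3KO and 448.8 to 917.9 in Smad2KO_Smad3het. Its mean response was 1.39 (SE 0.152, 2.63-fold, limma adjusted p = 0.000344), and WT, Smad2KO and Smad3KO had ratios of 1.34, 1.83 and 1.01. Both probe sets put the largest ratio in Smad2KO, and they differ in which of WT and Smad3KO comes next. The dim probe set 1453596_at lay between 43.9 and 49.3 without and between 67.7 and 76.9 with TGF-b on the 6 arrays, and went from 51.2 to 65.2 in Smad2KO_Smad3het. Its mean response of 0.67 did not pass (SE 0.227, limma adjusted p = 0.0958).

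In the fit to all 8 arrays, Id1 and both Id2 probe sets lost their call, with limma adjusted p = 0.126 for Id1, 0.0841 for 1435176_a_at and 0.100 for 1422537_a_at, and the mean responses stayed at 2.04, 0.91 and 1.30. Without the genotype block the adjusted p was 0.0859 and 0.0507 for the 2 Id2 probe sets, and with eBayes set plain, without trend or robust settings, it was 0.0565 for 1435176_a_at.

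Id3 had ratios of the opposite sign to Id1 and Id2. From the untreated to the treated array its signal went from 1141 to 404.8 in WT, from 1333 to 852.3 in Smad2KO, from 1097 to 894.5 in Smad3KO and from 1061 to 956.1 in Smad2KO_Smad3het. Every untreated array was above every treated one, and WT with TGF-b stood well under the rest. These are log2 ratios of -1.50 for WT, -0.65 for Smad2KO, -0.29 for Smad3KO and -0.15 for Smad2KO_Smad3het. The mean response over WT, Smad2KO and Smad3KO was -0.81 (SE 0.244, 95% interval -1.45 to -0.17, limma adjusted p = 0.134), so the test made no call. Leaving out the WT pair gave -0.47 (limma adjusted p = 0.0341) and leaving out the Smad3KO pair gave -1.07 (limma adjusted p = 0.0425), both called, while leaving out the Smad2KO pair gave -0.89 without a call (limma adjusted p = 0.317).

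Among the 3 genotypes tested, WT had the lowest Id3 ratio and Smad3KO the one nearest 0, an order that no test separated. The Smad3KO response minus the mean of WT and Smad2KO was 0.78 (SE 0.380, 95% interval -0.23 to 1.78, limma adjusted p = 0.881). It was called with a floor at the 25th percentile of signals (limma adjusted p = 0.0282), where 36823 probe sets were tested in that comparison. For this difference 0 of the 17 member probe sets were called with limma, 2 had an unadjusted p under 0.05, and 0.0298% of all probe sets tested were called higher and 0.104% lower. Those 2 were Id1 and the Tcf3 probe set 1426297_at. An unadjusted limma p under 0.05 was found for 1239 of all 20140 probe sets tested for this difference. Over all probe sets the split was 6 higher and 21 lower, and 50 and 76 with arrays centred on the median.

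**Figure D2:**
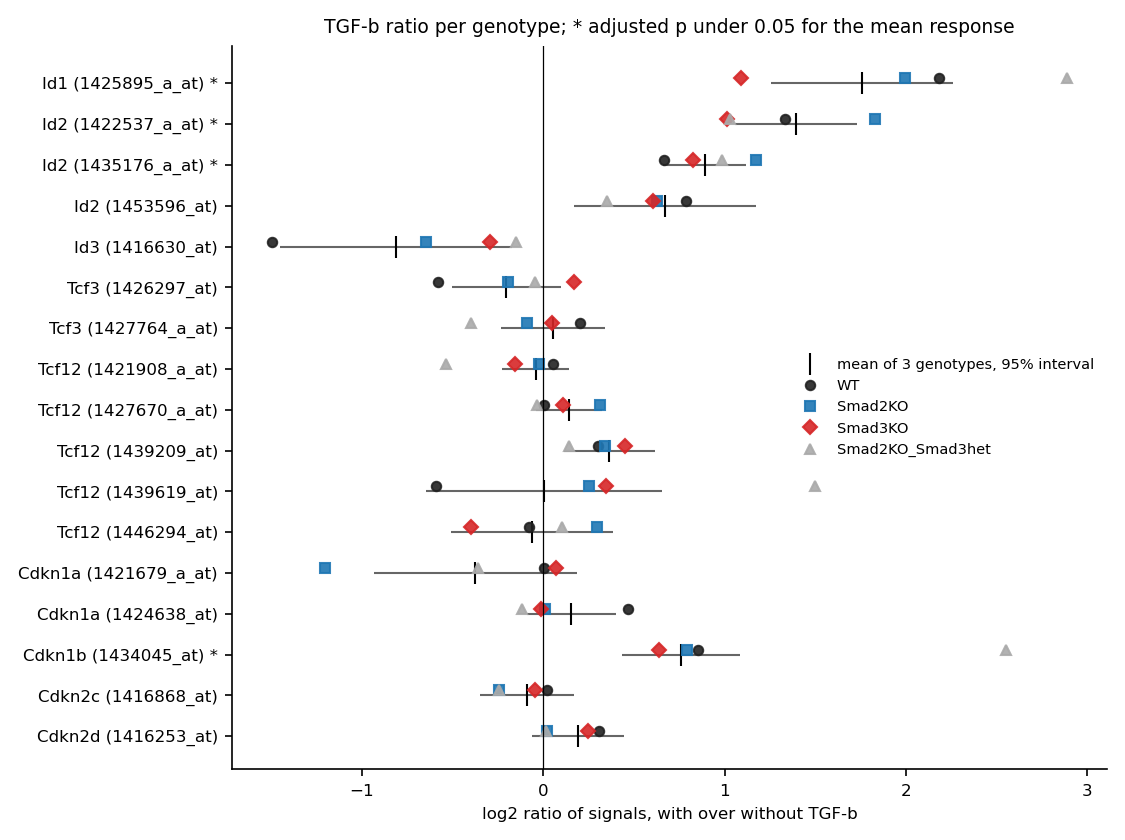
Log2 ratio of signals with over without TGF-b for the 17 member probe sets tested; coloured points are genotypes (1 ratio of 2 arrays each), the black tick and line are the mean over WT, Smad2KO and Smad3KO with its 95% interval from limma, and a star marks an adjusted p under 0.05. The 4 starred rows are Id1, 2 Id2 probe sets and Cdkn1b, all above 0, and the Id3 points run from -1.50 in WT to -0.15 in Smad2KO_Smad3het.

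The genes whose pattern was most like each Id gene were taken as those with the smallest root mean square difference of log2 signals over the 6 arrays, each centred on its own mean, among 16432 probe sets with 1 symbol that were at or over the floor on all 6. For Id1 they were Nek6 (0.139), a mitotic kinase gene, Bmpr2 (0.155), a BMP receptor gene, and Rnf149 (0.168). Their log2 ratios in WT, Smad2KO and Smad3KO were 2.00, 2.10 and 1.07 for Nek6, 2.51, 1.75 and 0.85 for Bmpr2, and 2.04, 1.91 and 0.97 for Rnf149. Ratios like those of Id1 follow from how these genes were chosen. For Id2 (1435176_a_at) they were Bcl2 (0.108), which encodes an inhibitor of apoptosis, Rasl11b (0.143) and Anxa2 (0.154). For Id3 they were Btla (0.110), an inhibitory receptor gene of lymphocytes, Slfn8 (0.110) and Ncoa7 (0.117). Btla gave -1.20 (WT), -0.56 (Smad2KO) and -0.31 (Smad3KO). These are the nearest of many profiles over 6 arrays and carry no test.

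No E protein probe set had a mean response that passed. Tcf3, which encodes E12 and E47, had a bright probe set, 1426297_at, that with TGF-b went from 507.8 to 339.4 in WT, from 573.1 to 500.5 in Smad2KO, from 437.6 to 491.3 in Smad3KO and from 910.4 to 880.8 in Smad2KO_Smad3het. Treated and untreated arrays overlapped, and WT with TGF-b was the lowest of all 8. The log2 ratios were -0.58, -0.20, 0.17 and -0.05, and the mean response over the first 3 was -0.20 (SE 0.134, 95% interval -0.50 to 0.10, limma adjusted p = 0.389). The Smad3KO response was 0.56 above the mean of the other 2 (SE 0.225, limma adjusted p = 0.708), which did not pass.

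A second Tcf3 probe set, 1427764_a_at, went from 175.8 to 202.4 in WT, from 259.8 to 244.4 in Smad2KO, from 182.4 to 188.9 in Smad3KO and from 487.3 to 369.3 in Smad2KO_Smad3het. Its WT ratio had the opposite sign to that of 1426297_at, 0.20, and its mean response was 0.06 (SE 0.130, limma adjusted p = 0.828). The probe set 1452542_x_at lay between 28.1 and 51.5 on the 6 arrays, under 2 times the floor, and was not tested. It read 98.0 and 33.9 on the Smad2KO_Smad3het arrays.

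Tcf12, which encodes the E protein HEB, had as its brightest probe set 1427670_a_at, which went from 1287 to 1291 in WT, from 1266 to 1572 in Smad2KO, from 1423 to 1537 in Smad3KO and from 440.6 to 430.5 in Smad2KO_Smad3het. The 6 arrays lay in a narrow range and the Smad2KO_Smad3het arrays far under it. The mean response was 0.14 (SE 0.083, 95% interval -0.04 to 0.33, limma adjusted p = 0.321). The probe set 1421908_a_at read 877.6 to 1002 on the 6 arrays and 634.6 and 437.1 on the Smad2KO_Smad3het arrays, with a mean response of -0.04 (SE 0.084, limma adjusted p = 0.801).

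The probe set nearest to a call among those of Tcf12 was 1439209_at, which went from 253.2 to 311.7 in WT, from 257.0 to 325.7 in Smad2KO and from 216.5 to 295.8 in Smad3KO. All 3 treated arrays were above all 3 untreated ones, with a mean response of 0.36 (SE 0.113, limma adjusted p = 0.0724). The Smad2KO_Smad3het arrays read 72.4 and 79.9 here, under every other array. The dim probe sets 1439619_at (31.3 to 63.7) and 1446294_at (63.5 to 113.2) had mean responses of 0.00 and -0.06 with intervals of -0.65 to 0.65 and -0.51 to 0.39. In Smad2KO_Smad3het they went from 21.9 to 78.4 and from 121.5 to 130.4. A change of the size seen for 1439209_at lies inside both intervals.

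Among the CDK inhibitors, Cdkn1b rose with TGF-b. This gene encodes p27, an inhibitor that resting T cells hold at high levels and lose on activation. The probe set 1434045_at went from 109.7 to 198.2 in WT, from 110.7 to 191.4 in Smad2KO, from 110.04 to 171.0 in Smad3KO and from 33.3 to 195.0 in Smad2KO_Smad3het. The untreated arrays of WT, Smad2KO and Smad3KO were nearly alike and the treated ones lay well above them, with log2 ratios of 0.85, 0.79 and 0.64. The mean response was 0.76 (SE 0.147, 1.69-fold, limma adjusted p = 0.00868).

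This Cdkn1b call was lost without the WT pair (limma adjusted p = 0.0537), without the Smad2KO pair (0.0809), with no filter on low signals (0.0546) and in the fit to all 8 arrays (0.338), while the mean response ran from 0.71 to 1.21 under these settings. The log2 ratio of 2.55 in Smad2KO_Smad3het rests on an untreated signal of 33.3, near the floor. The other Cdkn1b probe set, 1419497_at, was under the floor on all 6 arrays, at 0.938 to 20.2, and read 45.8 and 33.5 on the Smad2KO_Smad3het arrays, so it says nothing of the response.

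Cdkn1a showed no response that passed, and its level followed the genotype label. The bright probe set, 1424638_at, went from 485.0 to 671.8 in WT on adding TGF-b, from 368.5 to 370.5 in Smad2KO, from 862.6 to 855.0 in Smad3KO and from 587.9 to 541.1 in Smad2KO_Smad3het. Both Smad3KO arrays were above both WT arrays and both Smad2KO arrays were below them, whatever the treatment. WT had a log2 ratio of 0.47, Smad2KO of 0.01 and Smad3KO of -0.01, and the mean response was 0.16 (SE 0.112, limma adjusted p = 0.433).

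With treatment as a block, the Cdkn1a level in Smad2KO minus WT was -0.63 (SE 0.137, limma adjusted p = 0.0715) and in Smad3KO minus WT 0.59 (SE 0.137, limma adjusted p = 0.128), neither past the threshold. Both were called with the floor at the 25th percentile (limma adjusted p = 0.0142 and 0.0334). Smad3KO minus Smad2KO, a comparison added after these signals were seen, was 1.22 (SE 0.137, 2.32-fold, limma adjusted p = 0.00113). The dimmer probe set, 1421679_a_at, kept the same order of WT, Smad2KO and Smad3KO but had Smad2KO_Smad3het highest, going from 107.3 to 107.8 in WT, from 91.8 to 39.9 in Smad2KO, from 170.8 to 179.7 in Smad3KO and from 269.4 to 209.8 in Smad2KO_Smad3het. For it Smad3KO minus Smad2KO was 1.53 (SE 0.306, 2.89-fold, limma adjusted p = 0.0359). On both probe sets the Smad2KO_Smad3het arrays, which also carry the Smad2 deletion, read above those of Smad2KO. Those arrays stood apart in other ways too, with dim probe sets reading higher, and the source of this difference was not tested.

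Since the comparison was chosen for this gene, its p-value is not independent of the choice. Of the 17 member probe sets 2 were called higher in Smad3KO than in Smad2KO, both of Cdkn1a, and 0 lower, while 1.13% of all probe sets tested were called higher and 1.09% lower. The calls were lost with no filter (limma adjusted p = 0.0991 for 1424638_at and 0.246 for 1421679_a_at), with plain eBayes (0.138 and 0.226), without the treatment block (0.0901 and 0.353) and in the fit to all 8 arrays (0.293 and 0.604), and over all probe sets the split of 228 higher and 220 lower became 297 and 175 with arrays centred on the median.

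**Figure D3:**
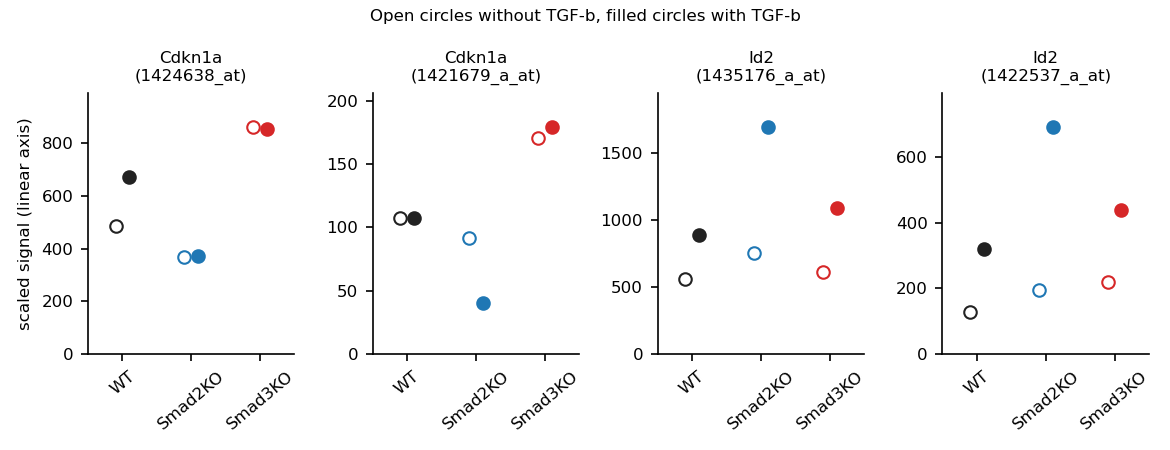
Scaled signal (linear axis from 0) of the Cdkn1a and Id2 probe sets by genotype, with open circles without and filled circles with TGF-b; each circle is 1 array. Among WT, Smad2KO and Smad3KO, the genotypes drawn, both Cdkn1a probe sets are highest in Smad3KO and lowest in Smad2KO, and the 2 Id2 probe sets drawn are highest in Smad2KO with TGF-b, at 1693 and 691.3.

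Neither INK4 gene had a mean response that passed. Cdkn2c went from 301.7 to 305.5 in WT, from 258.6 to 218.4 in Smad2KO, from 256.6 to 248.8 in Smad3KO and from 365.6 to 309.2 in Smad2KO_Smad3het, with a mean response of -0.09 (SE 0.118, 95% interval -0.35 to 0.17, limma adjusted p = 0.683). Cdkn2d went from 262.1 to 324.4, 286.9 to 291.0, 293.4 to 347.6 and 241.2 to 243.7 in the same order, with a mean response of 0.19 (SE 0.114, 95% interval -0.06 to 0.44, limma adjusted p = 0.337). Treated and untreated arrays overlapped for both genes, and the intervals leave room for changes smaller than that of Cdkn1b.

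Levels of the members were also compared between each knockout and WT with treatment as a block. Here too a genotype was 1 pair of arrays, so differences of culture, animal or array go with it. In Smad2KO 1 of 17 probe sets was called higher and 0 lower, against 0.546% and 0.412% of all probe sets tested. It was Id2 1435176_a_at, at 0.68 above WT on the log2 scale (SE 0.126, 1.60-fold, limma adjusted p = 0.0338), and the second Id2 probe set, 1422537_a_at, was at 0.86 without passing (SE 0.186, limma adjusted p = 0.0732). The third Id2 probe set, 1453596_at, was at -0.10 (SE 0.278, limma adjusted p = 0.952). The Id2 call was lost with no filter (0.323), a filter on the mean signal (0.0532), plain eBayes (0.326), no treatment block and all 8 arrays (0.773). In Smad3KO 0 of 17 were called with limma, and 0.159% of all probe sets tested were called higher and 0.213% lower. There Id2 1422537_a_at was 0.61 above WT without passing (SE 0.186, limma adjusted p = 0.260). The Id2 probe sets 1435176_a_at and 1453596_at were at 0.21 and 0.05 (limma adjusted p = 0.613 and 0.974). Unadjusted limma p-values under 0.05 numbered 7 of 17 in Smad2KO, against 1974 of all 20147 probe sets tested. In Smad3KO they numbered 3 of 17, against 2076 of 20147.

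Genes around the members were read from lists of helix-loop-helix partners, targets, cyclins, kinases and upstream factors, each gene from its brightest probe set. The lists were chosen with earlier results of these data known. Beside their counts, 5.93% of all probe sets tested were called higher for the mean response and 3.49% lower. With 1 probe set per gene these were 678 and 541 of 9464. Among other helix-loop-helix partners 4 of 11 genes were bright enough to test, and 2 rose: Ldb1, an adaptor that bridges such factors, at 0.65 (SE 0.090, limma adjusted p = 0.00119) and Bhlhe40, a repressor induced in activated T cells, at 0.37 (SE 0.101, limma adjusted p = 0.0437). The list's median response was 0.43. The remaining Id gene, Id4, and Tal1, Lyl1, Ascl2 and Lmo2 were under the floor on all 6 arrays, and the remaining E protein gene, Tcf4, read 21.1 to 43.2 and was not tested.

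Among targets and partners of E and Id proteins in T cells, 2 of the 5 genes tested rose and 1 fell, with a median of 0.54. Over all probe sets tested 5.93% rose and 3.49% fell by this test. Foxp3, which specifies regulatory T cells, was under the floor without TGF-b and read 342.0 in WT, 245.2 in Smad2KO and 85.3 in Smad3KO with it, a mean response of at least 2.80 (limma adjusted p = 0.00294). Il7r, the interleukin-7 receptor gene, rose by 0.93 (SE 0.155, limma adjusted p = 0.00372), and Gfi1, a transcriptional repressor, had a mean log2 response of -1.23 (SE 0.124, limma adjusted p = 0.000152). Gfi1 went from 254.5 to 104.6 in WT, from 415.3 to 166.2 in Smad2KO and from 380.1 to 177.6 in Smad3KO, so its treated and untreated arrays did not overlap. Cxcr5, the receptor of follicular helper T cells, and Notch1 were tested without a call, and Ptcra, Rag1 and Rag2, genes of thymocytes, were under the floor on all 6 arrays.

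**Figure D4:**
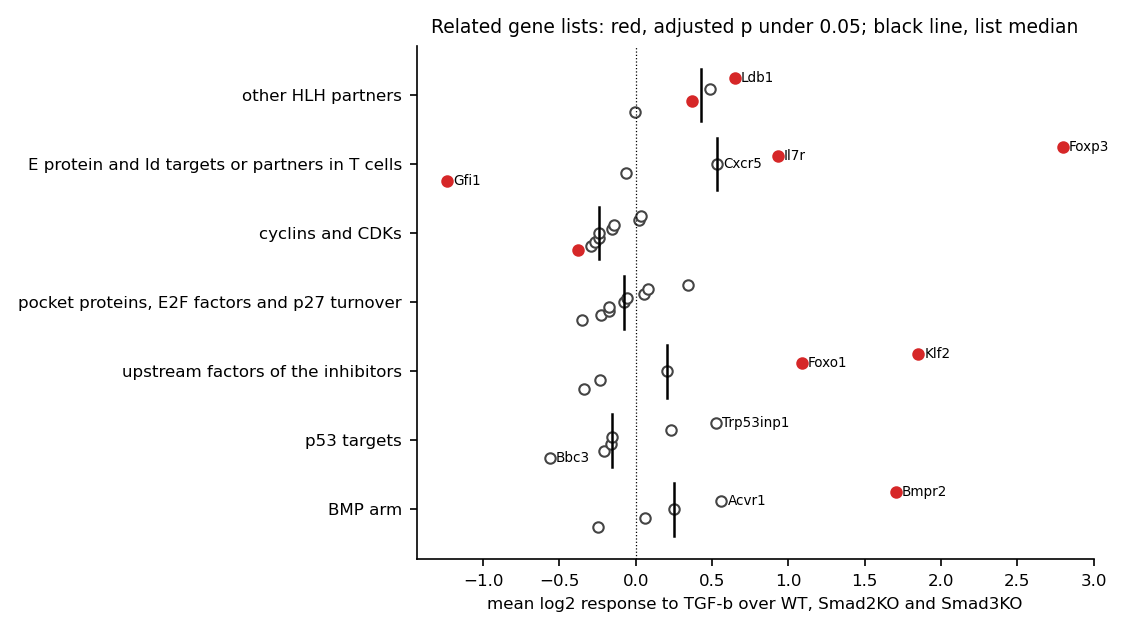
Mean log2 response to TGF-b over WT, Smad2KO and Smad3KO for the tested genes of 7 related lists; each circle is 1 gene, filled red where limma's adjusted p was under 0.05, and the black line is the list's median. The called genes run from Gfi1 at -1.23 to Foxp3 at 2.80, with Gfi1 and Cdk1 under 0 and the others above it. The cyclins and CDKs lie mostly just under 0, with a median of -0.24.

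The cyclins and CDKs that the inhibitors bind had a median response of -0.24, with 7 of 9 tested genes under 0 against a median of 0.00032 over all probe sets. Of these 9 genes 1 fell, Cdk1, the mitotic kinase, at -0.38 (SE 0.088, limma adjusted p = 0.0211), and 0 rose. Over all probe sets tested 3.49% fell and 5.93% rose by this test. An unadjusted limma p under 0.05 was found for 5 of the 9 genes, against 4897 of all 20147 probe sets tested. Cdk1 went from 1422 to 990.1 in WT, from 1320.3 to 964.2 in Smad2KO and from 1625 to 1449 in Smad3KO, so the smallest drop was in Smad3KO. Ccna2, the S and G2 phase cyclin, was at -0.29 without a call, and Ccnd2, a D cyclin gene, was at 0.03. Between genotypes 1 of these 9 was called: Ccna2 was 0.63 higher on the log2 scale in Smad3KO than in Smad2KO (SE 0.109, limma adjusted p = 0.0148). In that comparison, added after Cdkn1a was seen, 1.13% of all probe sets tested were called higher. Its calls over all probe sets fell from 448 to 36 with no filter and to 12 with all 8 arrays.

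Among pocket proteins, E2F factors and genes of p27 turnover, 0 of 9 were called with limma, with a median of -0.08. An unadjusted limma p under 0.05 was found for 3 of the 9, against 4897 of all 20147 probe sets tested. Rbl2, a pocket protein gene linked to quiescence, was nearest, at 0.34 (SE 0.097, limma adjusted p = 0.0517). The others of these 3 were below 0, E2f1 at -0.35 (SE 0.126, limma adjusted p = 0.115) and E2f3 at -0.23 (SE 0.098, limma adjusted p = 0.184). Skp2, whose product marks p27 for degradation, was at -0.17 (limma adjusted p = 0.375). The upstream factors of the inhibitors included 2 that rose of 5 tested, against 5.93% of all probe sets tested. Foxo1, a factor that drives Cdkn1b transcription, went from 429.9 to 1096 in WT, from 486.9 to 963.1 in Smad2KO and from 453.5 to 860.2 in Smad3KO, a mean response of 1.09 (SE 0.103, limma adjusted p = 0.000105). Klf2, a quiescence factor of naive T cells, went from 166.0 to 873.2, 168.8 to 552.2 and 158.2 to 430.02 in the same order, a mean response of 1.85 (SE 0.169, limma adjusted p = 0.000225). Myc, which represses Cdkn1a, was at -0.23 without a call (limma adjusted p = 0.0590).

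The genes of the p53 response that usually accompany Cdkn1a gave 0 calls with limma among 6 tested for TGF-b, with a median of -0.16. An unadjusted limma p under 0.05 was found for 2 of the 6, against 4897 of all 20147 probe sets tested. Those 2 were Bbc3, at -0.56 (SE 0.189, limma adjusted p = 0.0957), and Trp53inp1, at 0.52 (SE 0.167, limma adjusted p = 0.114). Trp53inp1 had log2 ratios of 0.87 (WT), 0.72 (Smad2KO) and -0.02 (Smad3KO). In the genotype comparison added after Cdkn1a was seen, 1.13% of all probe sets tested were called higher. Ccng1, a cyclin G gene, was among them, 0.51 higher on the log2 scale in Smad3KO than in Smad2KO (SE 0.098, limma adjusted p = 0.0265). The other 5, Mdm2 among them at 0.15 (limma adjusted p = 0.606), were not called. The 4 other CDK inhibitor genes, Cdkn1c, Cdkn2a, Cdkn2b and Cdkn3, were too dim to test, at 49.2 or less on each of the 6 arrays. In the BMP arm upstream of Id genes 1 of 5 tested genes rose, against 5.93% of all probe sets tested. It was the receptor gene Bmpr2, which went from 97.3 to 556.0 in WT, 141.4 to 474.5 in Smad2KO and 118.2 to 213.6 in Smad3KO. Its mean response was 1.70 (SE 0.304, limma adjusted p = 0.0245). Smad1, a BMP-activated Smad, was at 0.06 without a call, and Acvr1, another receptor gene of this arm, was at 0.56 (limma adjusted p = 0.0965).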

How the data were processed

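The authors deposited a table of probe set intensities on a linear scale, 1 column per array, made with GCOS 1.4 per the submitters' processing notes. The sources used here do not give its algorithm or scaling. Deposited medians ran from 27.3 to 44.4, so each array was scaled here to the same mean after trimming 2% at each end. A floor of 27.7 replaced lower signals before the log2 step. Probe sets whose highest signal on the 6 WT, Smad2KO and Smad3KO arrays was at least 55.4 were tested.

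Of 45101 probe sets, 64 were controls, 34945 had 1 symbol in the platform annotation, 932 had several and 9160 were unnamed here. Tests used limma 3.58.1 in R 4.3.3 (eBayes with trend and robust settings, Benjamini-Hochberg adjustment over all probe sets tested, two-sided). The planned comparisons were tested on simulated data, and Smad3KO against Smad2KO, added later, was not. Mean responses and levels had 2 residual degrees of freedom and response differences 1, and the last left out probe sets whose floored values had no spread. The residual of mean responses and levels was the variation of the TGF-b ratio between genotypes. For response differences it was the difference between the WT and Smad2KO ratios. Figures were drawn with matplotlib 3.10.9.

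The members and the lists were chosen with earlier results of these data known. All member probe sets are named, and list genes were named by the smallest p, up to 4 per list; Id4, Tcf4, Notch1, Ccnd2, Skp2, Smad1, Ccng1 and Mdm2, and the genes given only as under the floor or too dim, were named for their roles after their values were seen. The comparison of Smad3KO with Smad2KO levels was added after seeing Cdkn1a. The alternatives were quantile normalization, median centring, other floors, no filter or a filter on the mean, 1 probe set per gene, all 8 arrays, plain eBayes, no block, and leaving out each genotype's pair.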

Additional observations from a re-analysis of the deposited data

How the results depend on the processing

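Among all alternative values in the member tests, 783 kept their direction and their side of the threshold, 23 lost a call, 7 gained one and 16 changed sign. The sign changes of the mean response were at Tcf12 1439619_at (-0.054 with quantile normalization, -0.036 with median centring) and Tcf3 1427764_a_at (-0.059 with all 8 arrays), and with a genotype's pair left out Tcf12 1439619_at ran from -0.17 to 0.30, 1421908_a_at from -0.089 to 0.016 and 1446294_at from -0.24 to 0.11, Tcf3 1427764_a_at from -0.019 to 0.13, and Cdkn1a 1424638_at from -0.0024 to 0.24 and 1421679_a_at from -0.60 to 0.039. In the Smad3KO response difference with all 8 arrays they were at Id2 1453596_at (0.020), Tcf3 1427764_a_at (0.15) and Tcf12 1421908_a_at (0.015), 1427670_a_at (0.017) and 1439619_at (-0.039), and in the Smad3KO level at Tcf12 1439619_at (0.044 with quantile normalization). None of these was called as reported, and the cause was not tested.

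Member probe sets called higher for the mean response numbered 0 with all 8 arrays, 2 without the genotype block and 3 to 4 when a genotype's pair was left out, and those called lower 0 to 1. With a floor at the 25th percentile, 1 was called higher for the Smad3KO response difference, 2 higher and 1 lower for the Smad2KO level, 1 higher for the Smad3KO level and 1 lower for Smad3KO against Smad2KO. For the Smad2KO level 0 were called higher with no filter, a filter on the mean signal, all 8 arrays, plain eBayes or no treatment block. For Smad3KO against Smad2KO 0 were called higher with no filter, all 8 arrays, plain eBayes or no treatment block, and 1 with 1 probe set per gene.

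Over all probe sets 1898 were called for the mean response, and 515 with no filter, 1219 with 1 probe set per gene, 17 with all 8 arrays, 403 with plain eBayes, 914 without the genotype block and 705 to 2603 with a pair left out. The Smad3KO response difference had 27 calls, and 53 with quantile normalization, 126 with median centring, 153 with the floor at the 25th percentile, and 0 with no filter, all 8 arrays or plain eBayes, where 1264, 205 and 1069 had an unadjusted limma p under 0.05. The Smad2KO level had 193 calls, and 340 with that floor, 18 with no filter, 98 with 1 probe set per gene, 6 with all 8 arrays, 6 with plain eBayes and 19 with no treatment block. The Smad3KO level had 75, and 245, 3, 43, 1, 2 and 3 in the same order. Smad3KO against Smad2KO had 448, and 687, 36, 253, 12, 19 and 21 in that order. With 1 probe set per gene 9464 probe sets were tested in place of 20147. The causes of the other shifts were not tested. Signals near the floor of 27.7 limit what the dim Tcf12, Tcf3 and Cdkn1b probe sets can show.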
